A study of Mus musculus with 6 samples.

Results

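Reg4 was the only one of 10 antimicrobial and Reg family genes of the gut that was higher in the sorted CCK-EGFP cells, and the other 9 had lower means there than in non-EGFP cells. Over all genes, 58.3% had a lower mean in CCK-EGFP cells. Of the 9, only Reg2, which was dim on every array, was called lower in the main test. The 10 genes are Lyz1, Itln1, Mmp7 and Ang4, which mark Paneth cells or act in host defence of the small intestine, and Reg1, Reg2, Reg3a, Reg3b, Reg3g and Reg4 of the regenerating islet-derived (Reg) lectin family. They were chosen by gene symbol, and all 10 were measured, by 14 of the 45037 probe sets and among 18193 genes. A gene with several probe sets is shown by the one with the highest 6-array mean, and the others are given beside it. One group was made of intestinal cells sorted for the fluorescence of a CCK-EGFP transgene (3 arrays), and the other of GFP-negative intestinal cells of the same kind of mouse (3 arrays), taken in equal number. All samples came from adult CCK-EGFP transgenic mice on a Swiss Webster background, and the intestinal cells had been dissociated with enzymes before sorting. The series addresses cholecystokinin secretion, and the question here is what these epithelial defence genes do in cells that make cholecystokinin. No label ties the samples of a group to separate mice. The p-values therefore cover only the sample-to-sample spread, which may be technical.

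Paneth cells sit at the base of the small intestinal crypts and release granules of lysozyme, alpha-defensins and other antimicrobial proteins into the lumen. Reg3 proteins are secreted C-type lectins made by enterocytes and Paneth cells, and interleukin-22 acting through Stat3 is a known inducer of their genes. Reg4 is known from secretory cells of the gut, enteroendocrine cells among them, so the family spans several epithelial lineages. Lysozyme cleaves bacterial cell walls, the metalloproteinase Mmp7 activates mouse pro-alpha-defensins, Ang4 is a ribonuclease with microbicidal activity, and intelectin (Itln1) binds microbial glycans.

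Of the 6 Reg genes, Reg1, Reg2, Reg3a, Reg3b and Reg3g lie in 1 cluster on mouse chromosome 6, and Reg4 lies apart on chromosome 3. In the RefSeq gene table of GRCm38.p6 the order in the cluster is Reg3b, Reg3d, Reg3a, Reg2, Reg1, a pseudogene and Reg3g. Reg4 had a higher mean in CCK-EGFP cells and the clustered genes lower means, though of the clustered genes only Reg2 was called. A link between sequence and expression was not tested. The 100 bases before each annotated start are shown for the 6 Reg genes. They come from RefSeq (GRCm38.p6), run 5′ to 3′ on the gene's own strand, and have in capitals each match to the TATA box letters TATAAA or to the Tcf/Lef core CTTTGA on either strand.
Reg3a, chr6:78380609-78380708, plus strand: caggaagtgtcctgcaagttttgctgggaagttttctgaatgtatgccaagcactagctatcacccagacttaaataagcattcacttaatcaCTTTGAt
Reg3b, chr6:78370785-78370884, plus strand: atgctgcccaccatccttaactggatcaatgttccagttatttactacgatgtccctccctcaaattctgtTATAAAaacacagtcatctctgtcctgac
Reg3g, chr6:78468875-78468974, minus strand: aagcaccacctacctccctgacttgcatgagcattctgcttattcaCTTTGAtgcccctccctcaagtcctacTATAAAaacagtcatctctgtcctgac
Reg1, chr6:78425883-78425982, plus strand: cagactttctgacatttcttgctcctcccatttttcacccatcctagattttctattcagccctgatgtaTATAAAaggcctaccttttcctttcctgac
Reg2, chr6:78405055-78405154, plus strand: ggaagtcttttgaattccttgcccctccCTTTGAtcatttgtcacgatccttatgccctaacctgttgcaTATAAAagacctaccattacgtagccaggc
Reg4, chr3:98222056-98222155, plus strand: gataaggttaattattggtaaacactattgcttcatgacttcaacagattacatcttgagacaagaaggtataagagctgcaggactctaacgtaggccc

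Windows from 250 bases before to 50 bases after the start were compared by local alignment. Reg3a and Reg3g had 72.4% identical columns over 243 aligned, Reg3b and Reg3g 70.6% over 296, and Reg1 and Reg2 61.4% over 293. Reg3a and Reg3b had 65.9%, and pairs of Reg1 or Reg2 with a Reg3 gene had 54.2% to 57.2%. Alignments of Reg4 with the 5 clustered genes covered 59 columns (Reg2), 79 (Reg3g), 145 (Reg1), 168 (Reg3a) and 239 (Reg3b), the longest with 57.3% identical. The share identical ran from 53.8% (Reg1) to 64.4% (Reg2), and unrelated windows were not aligned for comparison. All 10 genes had a window in the table, 11 windows in all because Mmp7 had 2. TATAAA was present for 5 of the 10 (Mmp7, Reg1, Reg2, Reg3b and Reg3g), against 13.6% of all 32851 windows. CTTTGA was present for Mmp7, Reg2, Reg3a, Reg3b and Reg3g, against 16.0% of all windows, and the STAT letters TTCNNNGAA for Ang4 and Reg3b, against 8.30%. Reg4 had none of these 3 motifs in its window. The motifs were searched on both strands, and a match is a description of the letters only.

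Values are log2 RMA intensities, in which 1 unit is a doubling. Array medians were 5.66 to 5.72 in CCK-EGFP cells, against 5.37 to 5.55 in non-EGFP cells. Cck itself read 13.52, 12.90 and 13.06 on the CCK-EGFP arrays, against 8.65, 8.35 and 8.89 on the non-EGFP arrays, as the sort labels give it. A background level of 4.64 was set as the 95th percentile of the means of 70 olfactory and vomeronasal receptor genes. CCK-EGFP replicate 3 had the highest mean level of the CCK-EGFP arrays for the enterocyte, lymphocyte and Paneth defensin lists. The levels were graded over the arrays, as with 8.42, 9.39 and 10.78 for lymphocyte markers on replicates 1, 2 and 3. Results that rest on replicate 3 are given with and without it. Leaving out CCK-EGFP replicate 1 or 2 instead gave no lower call among the Paneth and Reg genes. The 3' minus 5' control probe sets of pyruvate carboxylase were apart by 2.36, 2.45 and 3.07 on CCK-EGFP replicates 1, 2 and 3, against 4.26 to 4.38 in non-EGFP samples. CCK-EGFP replicate 3 was thus the CCK-EGFP array nearest the non-EGFP samples. The part of RNA quality in the results below was not tested. No label says what a replicate number marks. The numbers were taken to pair the arrays from correlations in these same values (processing section), so a fit with the number as a block is given where it changes a call.

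Reg4 rose in CCK-EGFP cells. It read 14.09, 13.99 and 13.89 on the 3 CCK-EGFP arrays, against 11.47, 11.39 and 11.51 on the 3 non-EGFP arrays. The groups did not overlap, and the spread within each was small beside the gap. The means were 13.99 ± 0.10 in CCK-EGFP cells, against 11.46 ± 0.06 in non-EGFP cells (SD, n = 3 each), which is 5.78-fold higher (log2 difference 2.53, SE 0.17, 95% interval 2.12 to 2.94, limma with Benjamini-Hochberg adjusted p = 0.000385). Arrays of the same replicate number differed by 2.62, 2.60 and 2.38. The CCK-EGFP values lie near the array maxima of 14.7 to 14.8, and saturation was not tested. Reg4 was also abundant in non-EGFP cells, a mixed population in which fewer cells of a type and less RNA per cell cannot be told apart, here or for the genes that follow. Reg4 kept its call in all 15 alternatives run, with log2 differences of 2.28 to 2.61.

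The profile of Reg4 over the 6 arrays was most like those of Chgb, Gpr137b and Celf3 among genes above the background level. Pearson r was 0.99996, 0.9996 and 0.9994, values that mostly describe the gap between the groups. Chgb, the granule protein chromogranin B, averaged 13.74 ± 0.07 in CCK-EGFP cells, against 11.57 ± 0.05 in non-EGFP cells. Its log2 difference was 2.17, close in size to that of Reg4, while Gpr137b differed by 3.76 and the RNA-binding protein gene Celf3, whose non-EGFP mean lies below the background level, was at least 47.6-fold higher.

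The 3 Reg3 genes had lower means in CCK-EGFP cells, with wide spread among those cells, and none passed the test. Reg3g, which encodes a lectin that kills Gram-positive bacteria, read 9.63, 10.34 and 12.34 on the CCK-EGFP arrays, against 11.54, 12.07 and 12.94 on the non-EGFP arrays. CCK-EGFP replicates 1 and 2 lay below every non-EGFP array, and replicate 3 lay among them. The log2 difference was -1.41 (SE 0.73, 95% interval -3.16 to 0.33, limma adjusted p = 0.188). It passed with the replicate number as a block (adjusted p = 0.0457) and without CCK-EGFP replicate 3 (-2.19, adjusted p = 0.0296). Without CCK-EGFP replicate 1 it was -0.84 (limma adjusted p = 0.427), and without replicate 2 it was -1.20 (0.375).

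Reg3a read 9.18, 10.15 and 11.93 in CCK-EGFP cells, against 11.65, 11.67 and 12.25 in non-EGFP cells. The same order was seen, with CCK-EGFP replicate 3 alone reaching the non-EGFP range. Reg3a differed by -1.44 (SE 0.67, 95% interval -3.04 to 0.16, limma adjusted p = 0.154), by -2.19 without CCK-EGFP replicate 3 (adjusted p = 0.0152), and did not pass with the block (adjusted p = 0.0842). The Reg3a difference was -0.82 without CCK-EGFP replicate 1 (limma adjusted p = 0.349) and -1.30 without replicate 2 (0.314). Reg3b, also a bactericidal lectin, read 10.79, 12.30 and 13.34 in CCK-EGFP cells, against 12.53, 13.28 and 13.69 in non-EGFP cells. Its groups overlapped through CCK-EGFP replicate 3, and its difference of -1.02 did not pass (SE 0.66, 95% interval -2.60 to 0.55, limma adjusted p = 0.272, 0.0851 with the block and 0.101 without CCK-EGFP replicate 3). That difference shrank to -0.35 without CCK-EGFP replicate 1 (limma adjusted p = 0.623) and was -1.10 without replicate 2 (0.377). The other Reg3b probe set differed by -0.70 (adjusted p = 0.257 over all probe sets). The probe set of Reg3b with the higher mean carries the suffix _s_at, which the array maker gives to sets that can match several related transcripts, and signal shared between Reg3 genes was not tested.

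Reg1 and Reg2 are the pair known from pancreatic acinar cells. Reg1 read 12.64, 12.79 and 13.57 on the CCK-EGFP arrays, against 13.58, 13.64 and 13.81 on the non-EGFP arrays. The groups were apart by a margin of about 0.01, again set by CCK-EGFP replicate 3. The log2 difference was -0.68 (SE 0.28, 95% interval -1.35 to -0.0022, limma adjusted p = 0.122), with adjusted p = 0.0982 with the block. It passed without CCK-EGFP replicate 3 (-0.96, adjusted p = 0.0315) and with arrays centred on their medians (-0.93, adjusted p = 0.0426).

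Reg2 read 3.47, 3.46 and 3.47 in CCK-EGFP cells, against 4.03, 4.29 and 4.14 in non-EGFP cells. All 6 values lie below the background level of 4.64, so no fold is given. The difference of -0.68 was called (SE 0.17, limma adjusted p = 0.0333), but the call ended with the block (0.0645), with a second quantile normalization (0.0801) and without any 1 array other than non-EGFP replicate 1 (adjusted p up to 0.114). The SD of Reg2 was 0.0036 in CCK-EGFP cells. Its profile over the 6 arrays was most like those of Cnep1r1, Exd1 and Sema3b (Pearson r 0.998, 0.998 and 0.997). Of 15 measured pancreatic acinar markers, 0 were higher, 2 lower and 13 did not pass, and 5 had a mean above the background level in CCK-EGFP cells, against 9 in non-EGFP cells. The mean level of that list was 4.97 to 5.20 in CCK-EGFP cells, against 5.44 to 5.76 in non-EGFP cells. The trypsinogen gene Prss2 was at least 1.31-fold lower and the acinar factor gene Rbpjl at least 1.55-fold lower, both with CCK-EGFP means below the background level (limma adjusted p = 0.022 and 0.0256). The 4 Prss2 probe sets differed by -1.14 to -0.26, and with the mean of all probe sets neither gene passed (0.0704 for Prss2 and 0.0539 for Rbpjl). Rbpjl did not pass with a trended robust eBayes (0.0544). Each call also ended without any 1 array other than non-EGFP replicate 3 (adjusted p up to 0.0663 for Prss2 and 0.098 for Rbpjl). The colipase gene Clps stood at 11.83 ± 0.49 in CCK-EGFP cells, against 11.96 ± 0.46 in non-EGFP cells, and the elastase gene Cela1 at 9.56 ± 0.43 in CCK-EGFP cells, against 8.64 ± 0.57 in non-EGFP cells (adjusted p = 0.796 and 0.108, with Cela1 at 0.0475 with array weights). The part of acinar RNA in the Reg1 and Reg2 values was not tested.

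**Figure D1:**
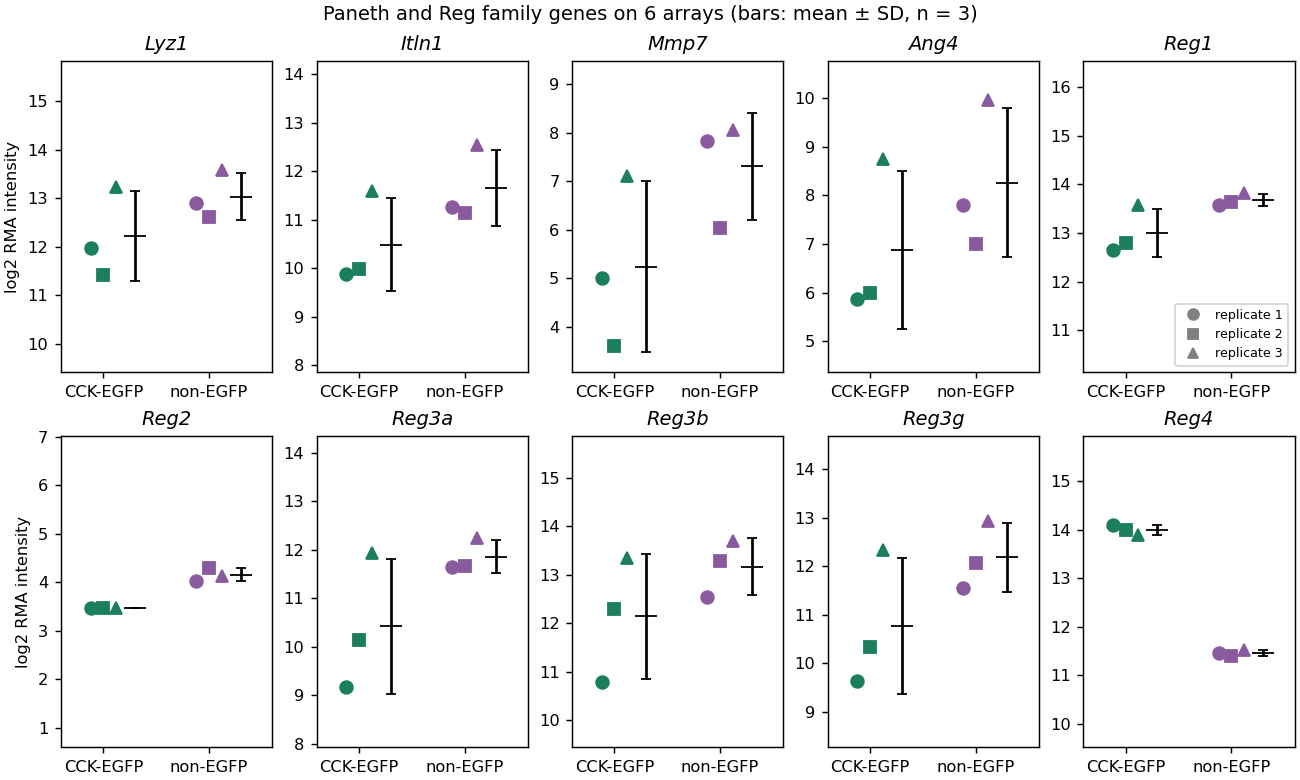
Log2 RMA intensity of each of the 10 genes on the 3 CCK-EGFP arrays (left in each panel) and the 3 non-EGFP arrays (right), with marker shape giving the replicate number and bars the mean ± SD (n = 3). Every panel spans the same number of log2 units; Reg4 is higher in CCK-EGFP cells with no overlap, and CCK-EGFP replicate 3 (triangle) is at or near the non-EGFP range for the other genes except Reg2.

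The 4 Paneth genes Lyz1, Itln1, Mmp7 and Ang4 had lower means in CCK-EGFP cells, and none passed the main test on all arrays. Mmp7 read 5.004, 3.62 and 7.11 on the CCK-EGFP arrays, against 7.83, 6.04 and 8.06 on the non-EGFP arrays. CCK-EGFP replicate 2 lay below the background level, and replicate 3 lay above non-EGFP replicate 2. The log2 difference was -2.07 (SE 0.95, 95% interval -4.35 to 0.22, limma adjusted p = 0.153). It passed with the replicate number as a block (adjusted p = 0.0352) and without CCK-EGFP replicate 3 (-3.00, adjusted p = 0.0436).

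Ang4 read 5.87, 6.001 and 8.76 in CCK-EGFP cells, against 7.80, 7.01 and 9.97 in non-EGFP cells. Replicate 3 was the highest array of each group, by 2.82 over the mean of the other CCK-EGFP arrays and by 2.57 over that of the other non-EGFP arrays. The difference of -1.38 (SE 1.02, 95% interval -3.84 to 1.07, limma adjusted p = 0.333) passed with the block (adjusted p = 0.0298), and arrays of the same number differed by -1.93, -1.01 and -1.21. It did not pass without CCK-EGFP replicate 3 (-2.32, adjusted p = 0.121). The other Ang4 probe set read 4.06, 4.22 and 7.24 in CCK-EGFP cells, against 7.31, 5.82 and 9.01 in non-EGFP cells, a difference of -2.20 (adjusted p = 0.197 over all probe sets, 0.0295 with the block).

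Itln1 read 9.88, 9.99 and 11.59 in CCK-EGFP cells, against 11.25, 11.13 and 12.55 in non-EGFP cells. The 3 same-number differences lay close together, at -1.37, -1.14 and -0.96. The mean difference was -1.16 (SE 0.58, 95% interval -2.55 to 0.24, limma adjusted p = 0.179, or 0.0247 with the block and 0.0593 without CCK-EGFP replicate 3). Lyz1 was abundant, at 11.99, 11.43 and 13.24 in CCK-EGFP cells, against 12.90, 12.63 and 13.57 in non-EGFP cells. It differed by -0.81 (SE 0.50, 95% interval -2.02 to 0.39, limma adjusted p = 0.255, 0.0788 with the block and 0.0586 without CCK-EGFP replicate 3).

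Of the 3 Lyz1 probe sets, the dimmest was the one whose groups did not overlap. It read 4.96, 4.40 and 5.52 in CCK-EGFP cells, against 6.29, 5.69 and 7.53 in non-EGFP cells, a difference of -1.54 (adjusted p = 0.0894 over all probe sets, 0.0247 with the block). Its CCK-EGFP values lie near the background level of 4.64, with replicate 2 below it, and the nearest values of the groups were 5.52 and 5.69. By gene, 28.1% of all genes were lower without overlap. The brighter 2 carry the suffix _x_at, given to sets with probes that can match other transcripts, and differed by -0.81 and -0.87. Lyz2, the near-identical lysozyme gene of macrophages, read 8.33, 7.57 and 9.77 in CCK-EGFP cells, against 9.82, 9.94 and 11.00 in non-EGFP cells (log2 difference -1.70, limma adjusted p = 0.0861, 0.0253 with the block, and -2.30 with 0.0229 without CCK-EGFP replicate 3). Lyz1 and Lyz2 thus had the same order of arrays within CCK-EGFP cells. In non-EGFP cells the order differed, with replicate 2 lowest for Lyz1 and replicate 1 lowest for Lyz2. Signal shared between their probe sets was not tested.

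Over all 10 genes, 1 was called higher (Reg4) and 1 lower (Reg2), where 24.1% of all genes were called, 14.0% higher and 10.2% lower (limma, adjusted p under 0.05). The median log2 difference of the 10 was -1.09, beside -0.17 over all genes. The members called, 1 in each direction, are a share near this background. With the replicate number as a block, 4 were lower, Itln1, Mmp7, Ang4 and Reg3g, against 8.43% of all genes, and Reg4 was higher, as were 12.9%. Of the 14 probe sets, 1 was higher and 0 lower over all probe sets tested, where 8.84% were higher and 7.29% lower, and with the block 5 were lower, against 6.88% of all probe sets. Those 0 calls compare with 2 lower at an unadjusted p under 0.05, the dimmest Lyz1 set and Reg2. Counted by gene and in either direction, 3 of the 10 had a limma unadjusted p under 0.05, as did 7404 of all 18193 genes.

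The same-number comparison gave 1 direction for 9 genes. Every gene except Reg4 was lower in CCK-EGFP cells in each of the 3 pairs of arrays with the same replicate number, as were 38.6% of all genes. The pair of replicate 3 had the smallest difference for 7 of the 9, the others being Ang4 and Reg2. Without CCK-EGFP replicate 3 the groups did not overlap for any of the 9, against 33.7% of all genes lower in this way. That array was singled out after its values for these genes were seen, so the separation without it is a description only. With all 6 arrays only Reg1 and Reg2 were lower without overlap, where 28.1% of all genes were. Leaving out CCK-EGFP replicate 3 gave 4 lower calls, Mmp7, Reg1, Reg3a and Reg3g, against 7.61% of all genes, with Reg4 among the 11.8% higher. Leaving out CCK-EGFP replicate 1 or 2 instead gave 0 lower members, against 3.66% and 2.78% of all genes. Leaving out both arrays numbered 3, a choice made after seeing the data, gave 3, Itln1, Reg3a and Reg3g, against 6.84% of all genes.

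**Figure D2:**
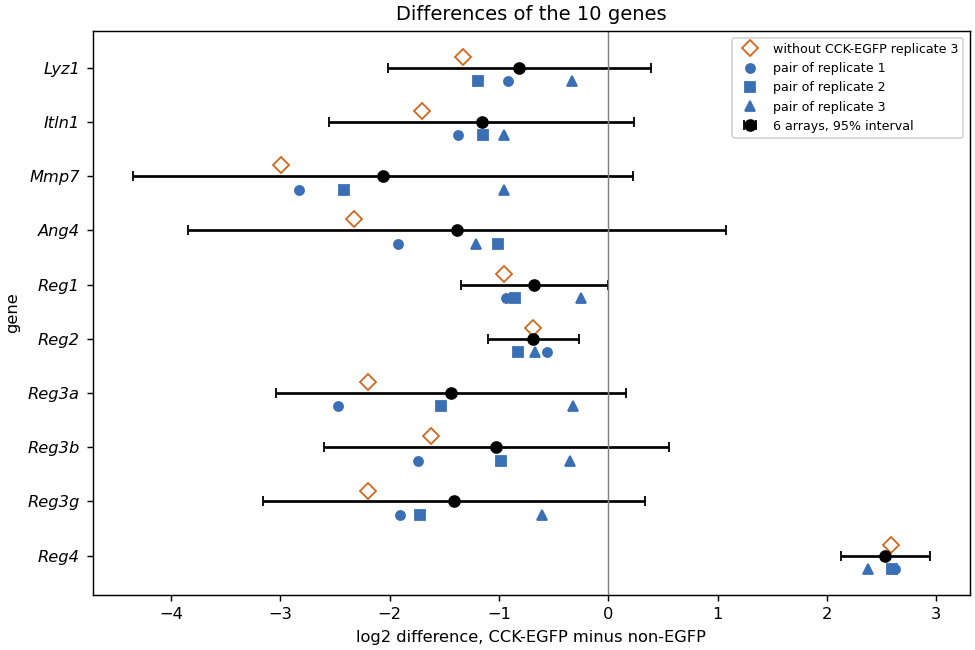
Log2 difference, CCK-EGFP minus non-EGFP, of each gene from all 6 arrays with its 95% interval (black), without CCK-EGFP replicate 3 (open diamonds), and between arrays of the same replicate number (blue). All 3 same-number differences are negative for 9 genes and positive for Reg4, and the intervals of 7 of the 9 lower genes include 0.

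CCK-EGFP replicate 3 was the highest of the 3 CCK-EGFP arrays for 9 of the 10 genes, and non-EGFP replicate 3 was the highest non-EGFP array for 9. Over all genes these shares were 33.2% and 27.9%. Against the mean of the other 2 CCK-EGFP arrays, replicate 3 was higher by 2.82 for Ang4, 2.80 for Mmp7, 2.35 for Reg3g and 2.26 for Reg3a. Fewer than 1 in 100 genes lay above each of these 4, as 99.7%, 99.7%, 99.2% and 99.1% of all genes had a smaller value. Reg3b (1.79), Itln1 (1.65), Lyz1 (1.54) and Reg1 (0.85) followed, while Reg2 (0.01) and Reg4 (-0.15) did not share the shift. In non-EGFP cells the same measure was 2.57 for Ang4, 1.35 for Itln1, 1.13 for Reg3g and Mmp7, and 0.08 for Reg4.

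**Figure D3:**
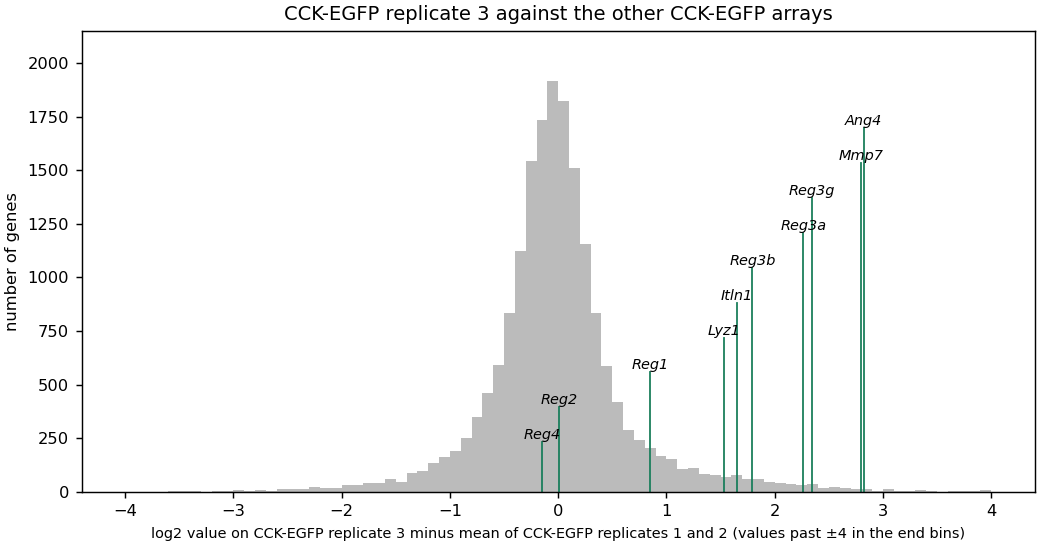
Distribution over 18193 genes (grey bars) of the log2 value on CCK-EGFP replicate 3 minus the mean of CCK-EGFP replicates 1 and 2, with the 10 genes marked by green lines whose height has no meaning. Ang4, Mmp7, Reg3g and Reg3a lie in the far right tail, and Reg2 and Reg4 lie near 0.

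Other Paneth genes went in both directions. Of the alpha-defensins, the main antimicrobial peptides of Paneth granules, 3 of 55 listed genes were measured with a probe set of their own, and 0 passed by limma, with 0 at an unadjusted p under 0.05. Defa39 read 10.53, 9.81 and 12.13 in CCK-EGFP cells, against 12.03, 11.42 and 13.01 in non-EGFP cells (log2 difference -1.33, limma adjusted p = 0.179, 0.0269 with the block, 0.0508 without CCK-EGFP replicate 3). Its array order was that of Lyz1, lowest on CCK-EGFP replicate 2 and highest on non-EGFP replicate 3. Defa31 read 7.62, 10.02 and 11.90 in CCK-EGFP cells, against 10.60, 9.49 and 12.07 in non-EGFP cells (adjusted p = 0.579), with overlapping groups, and its difference turned positive without CCK-EGFP replicate 1. Defa3 was below the background level on every array. Both bright defensin sets carry the suffix _x_at.

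Of 20 other genes tied to Paneth cells, 17 were measured, of which 5 were higher, 2 lower and 10 did not pass, with a median log2 difference of 0.57. Which cells made the RNA of these listed genes, higher or lower, was not tested. Habp2, a serine protease that binds hyaluronan, was at least 27.8-fold higher against the background level (9.43 ± 0.30 in CCK-EGFP cells, against 4.43 ± 0.04 in non-EGFP cells, limma adjusted p = 0.000104). Its other probe set differed by 2.73. The niche signal Wnt3 was at least 14.7-fold higher (adjusted p = 0.00223), and the growth factor gene Egf at least 1.81-fold (adjusted p = 0.00236). The surface glycoprotein gene Cd24a rose by 1.38 (adjusted p = 0.00411). The ephrin receptor gene Ephb3 was at least 2.40-fold higher against the background level (adjusted p = 0.0149), which did not hold when CCK-EGFP array 1 or 2 was left out (up to 0.0582). Slc30a2, the zinc transporter of Paneth granules, fell by 2.62 (6.89, 7.98 and 9.32 in CCK-EGFP cells, against 10.48, 11.13 and 10.43 in non-EGFP cells, adjusted p = 0.0247). That call ended when CCK-EGFP array 2 or non-EGFP array 1 or 2 was left out (up to 0.0857). The growth factor gene Tgfa fell by 0.67 (adjusted p = 0.0451, 0.0801 with the block), and that call ended without any 1 of the 6 arrays (up to 0.144) and with a trended robust eBayes (0.15). The peptide hormone gene Guca2b (12.55 ± 0.51 in CCK-EGFP cells, against 13.49 ± 0.13 in non-EGFP cells) and the protease inhibitor gene Spink4 (12.02 ± 0.63 in CCK-EGFP cells, against 12.96 ± 0.03 in non-EGFP cells) did not pass with all arrays (adjusted p = 0.0574 and 0.0806). Both passed without CCK-EGFP replicate 3 (-1.21 with 0.023 for Guca2b, -1.30 with 0.0104 for Spink4), with array weights (0.0369 and 0.0426), with a trended robust eBayes (0.0244 and 0.0436) and with arrays centred on their medians (0.0267 and 0.0339).

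Among paralogues and partners of the 10 genes, 20 of 23 were measured, 4 were higher, 0 lower and 16 did not pass, with a median of -0.32. A pair of ribonucleases related to Ang4 went the other way from it. Rnase4 rose by 1.45 (12.59 ± 0.22 in CCK-EGFP cells, against 11.14 ± 0.40 in non-EGFP cells, limma adjusted p = 0.0116, or 0.0529 without CCK-EGFP replicate 2). The angiogenin gene Ang rose by 1.26 (adjusted p = 0.0379), but its call ended with the block (0.0741), with either rescaling (0.0576 and 0.0507), with the mean of its probe sets (0.122) and without any 1 array other than CCK-EGFP replicate 3 (up to 0.125). The metalloproteinase inhibitor gene Timp3 was at least 2.66-fold higher against the background level (adjusted p = 0.00124), though its 4 probe sets differed by -0.21 to 1.73, and the lysozyme-like gene Lyzl4 at least 1.64-fold (adjusted p = 0.00492). The ribonuclease inhibitor Rnh1 stood at 11.55 ± 0.20 in CCK-EGFP cells, against 12.17 ± 0.17 in non-EGFP cells (adjusted p = 0.0663, 0.0244 with a trended robust eBayes and 0.0343 with arrays centred on their medians).

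Of 23 listed genes of the pathways that induce Reg3 genes, 21 were measured, and 4 were higher, 7 lower and 10 did not pass, with a median of -0.55. The interleukin-6 receptor Il6ra rose by 4.71 (9.68 ± 0.65 in CCK-EGFP cells, against 4.98 ± 1.05 in non-EGFP cells, limma adjusted p = 0.00312), but its other probe set differed by 0.05. The toll-like receptor genes Tlr2 and Tlr5 were at least 16.3-fold and 3.35-fold higher against the background level (adjusted p = 0.000835 and 0.00744), and the fucosyltransferase gene Fut2 at least 13.3-fold (adjusted p = 0.000829), with a second probe set at -0.11.

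The 7 lower genes, named after their values were seen, include the interleukin-22 receptor chains Il22ra1 and Il10rb, and Stat3 and Socs3. Jak1 and Tyk2, also listed, were not called in either direction. Il22ra1 fell by 2.05 (7.36 in CCK-EGFP cells, against 9.41 in non-EGFP cells, limma adjusted p = 0.00729) and the toll-like receptor adaptor gene Myd88 by 1.21 (8.04 in CCK-EGFP cells, against 9.25 in non-EGFP cells, adjusted p = 0.00706), and both kept their calls in all alternatives run on them. The feedback inhibitor gene Socs3 fell by 1.19 (adjusted p = 0.0183), which no longer held when CCK-EGFP array 1 or 2 or non-EGFP array 2 was left out (up to 0.0631). Stat3 fell by 0.91 (adjusted p = 0.0234, 0.0537 with the block), and that call ended when any array numbered 1 or 2 was left out (up to 0.0906) and with the mean of its probe sets (0.0712). Il10rb, the second chain of the receptor, fell by 0.75 (adjusted p = 0.0455, 0.0726 with the block), and its call ended without any 1 array other than non-EGFP replicate 3 (up to 0.144). The interleukin-17 receptor gene Il17rc fell by 1.01 (adjusted p = 0.0177), which ended when CCK-EGFP array 1 or 2 was left out (up to 0.071) and with the mean of its probe sets (0.274). Tlr4 was below the background level in both groups. Il18, a cytokine of the epithelium, stood at 10.90 ± 0.95 in CCK-EGFP cells, against 12.01 ± 0.59 in non-EGFP cells (adjusted p = 0.163, 0.0396 with the block), and the NF-kappa-B regulator gene Nfkbiz at 10.68 ± 0.19 in CCK-EGFP cells, against 11.07 ± 0.59 in non-EGFP cells (adjusted p = 0.387).

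Among other epithelial antimicrobial genes, 26 of 34 were measured, and 2 were higher, 2 lower and 22 did not pass, with a median of -0.45. The lactoferrin gene Ltf rose by 3.93 (9.53, 10.02 and 9.26 in CCK-EGFP cells, against 7.16, 3.84 and 6.03 in non-EGFP cells, limma adjusted p = 0.0173), which did not hold when CCK-EGFP array 1 or 2 was left out (up to 0.0687). Wfdc2, a secreted protease inhibitor, rose by 2.49 (adjusted p = 0.00162). Ccl20, a chemokine of the epithelium over lymphoid follicles, was at least 4.12-fold lower against the background level (adjusted p = 0.00218), and the nitric oxide synthase gene Nos2 at least 1.68-fold (adjusted p = 0.0185). The Nos2 call ended without CCK-EGFP replicate 1 or non-EGFP replicate 2 (up to 0.0707). The bacteria-binding lectin gene Zg16 (13.89 ± 0.17 in CCK-EGFP cells, against 14.12 ± 0.04 in non-EGFP cells) and the immunoglobulin receptor gene Pigr (12.53 ± 0.33 in CCK-EGFP cells, against 13.10 ± 0.10 in non-EGFP cells) did not pass (adjusted p = 0.357 and 0.104), though Pigr did with a trended robust eBayes (0.0408) and with arrays centred on their medians (0.0387).

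Levels of other marker lists also differed among the CCK-EGFP arrays, not all in the same order. The mean level of 15 measured enterocyte markers was 11.64, 11.87 and 12.64 on the CCK-EGFP arrays, against 13.10, 13.25 and 13.11 on the non-EGFP arrays (0 higher, 6 lower). That of 11 T and NK lymphocyte markers was 8.42, 9.39 and 10.78 in CCK-EGFP cells, against 9.36, 9.65 and 10.60 in non-EGFP cells (0 higher, 0 lower). For both lists CCK-EGFP replicate 3 was the highest CCK-EGFP array, as for the Paneth genes. Among the non-EGFP arrays, replicate 3 was the highest for the lymphocyte list but not for the enterocyte list. Myeloid markers, 12 in number, averaged 6.91 to 8.39 in CCK-EGFP cells, against 8.71 to 8.86 in non-EGFP cells (0 higher, 1 lower), and 9 goblet markers 11.34 to 11.73 in CCK-EGFP cells, against 12.04 to 12.27 in non-EGFP cells (1 higher, 3 lower). The 8 stem and crypt-base markers averaged 6.72 to 7.55 in CCK-EGFP cells, against 6.28 to 7.28 in non-EGFP cells (2 higher, 1 lower), and 7 tuft markers 7.43 to 8.49 in CCK-EGFP cells, against 5.71 to 6.51 in non-EGFP cells (4 higher, 0 lower). The 12 enteroendocrine markers, all higher, averaged 12.34 to 12.69 in CCK-EGFP cells, against 7.49 to 7.75 in non-EGFP cells. The part of other cell types in the differences of the 10 genes was not tested.

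**Figure D4:**
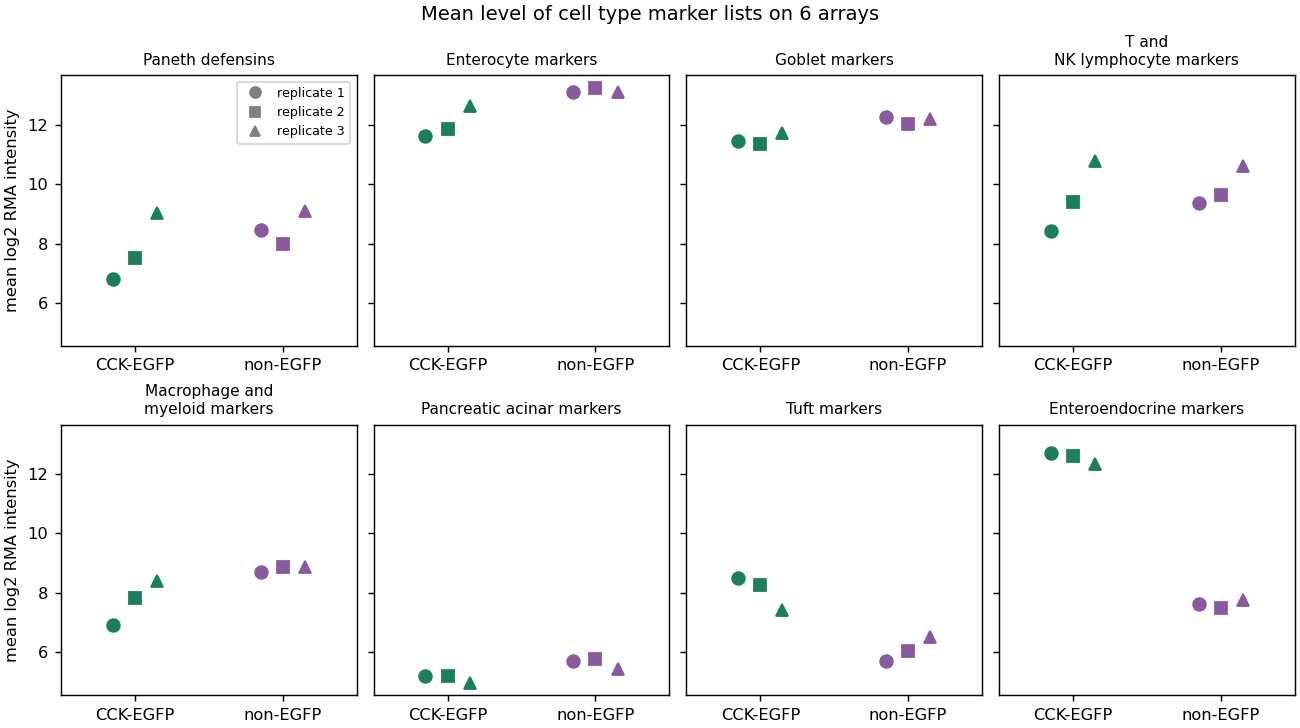
Mean log2 RMA intensity over the measured genes of 8 marker lists on the 3 CCK-EGFP arrays (left in each panel) and 3 non-EGFP arrays (right), with marker shape giving the replicate number. CCK-EGFP replicate 3 is the highest CCK-EGFP array for defensins (9.03), enterocyte (12.64), goblet (11.73), lymphocyte (10.78) and myeloid (8.39) markers, and the lowest for enteroendocrine (12.34) and tuft (7.43) markers.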

How the data were processed

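Total RNA of 6 samples of sorted mouse intestinal cells was amplified from picogram amounts and labelled with biotin, per the labels' protocols. The authors deposited 1 table of log2 values for 45101 probe sets, made with RMA per the submitters' processing notes (background correction, quantile normalization, probe set summary), version not given in the sources used here. RMA gives no detection call. The number of arrays limits the precision. The 64 control probe sets were left out, 34945 probe sets had 1 symbol in the platform annotation, which can be old, and 932 had several and were not named. No per-sample column was unmapped (0).

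The comparison used limma 3.58.1 (R 4.3.3; lmFit, eBayes, two-sided, Benjamini-Hochberg adjustment over 18193 genes, or over all probe sets where stated, threshold 0.05), tested on simulated data. The arrays' deviations from their group means correlated across genes by 0.27, 0.159 and 0.219 between arrays of the same replicate number and by -0.245 to -0.0109 between others. Deviations from a group mean cancel within the group, so positive values for some pairs force negative values for others. The negative values thus add no separate support. The numbers were taken to pair the arrays because the same-number values were all positive, though no label states a pairing. The main test, set without a block, does not use this pairing. Where 1 group mean was below the background level, the fold is a bound against it.

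The members and lists were chosen with earlier results of these data known. Named genes were the 10 members, the 3 genes with the most similar profile to each called member, and from 6 of 13 lists up to 4 called genes by size and up to 2 others by level; further called genes are marked or were added after their values were seen. The other 7 marker lists are given as counts and levels. Alternatives were the replicate block, 2 filters on dim genes, array weights, a trended robust eBayes, 2 rescalings, the mean of a gene's probe sets and leaving out arrays. Promoter windows (RefSeq, GRCm38.p6) were searched with Python 3.11.15 and aligned with Biopython 1.88 (match 1, mismatch -1, gap opening -2, extension -0.5). Other tools were pandas 2.3.3, numpy 2.4.6 and matplotlib 3.10.9.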

Additional observations from a re-analysis of the deposited data

How the results depend on the processing

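Reg4 stayed higher and past the threshold under every alternative run, and none of the 10 genes changed direction. The count of lower members, 1 in the limma test on all arrays, was 4 with the replicate block, 2 with arrays centred on their medians, 0 with genes above the background level or without the dimmest 25% of genes (both leave out Reg2), 0 after a second quantile normalization, and 3 without the arrays numbered 3. It ran from 0 to 4 as each array was left out. The pairing by replicate block raised the lower member probe sets from 0 to 5; that count was 1 with array weights, 2 with centring, 1 after the second quantile normalization, 1 without the arrays numbered 3, and 0 to 2 as each array was left out. Calls over all genes were 2540 higher and 1851 lower, 2102 and 3611 with centring, which shifts the median of all genes by -0.25, and 2117 and 2588 after the second quantile normalization. As each array was left out they ran from 1365 to 2486 higher and from 505 to 1962 lower. The causes of these changes were not tested. Among other named genes, the log2 difference of Clps turned from -0.12 to 0.0161 with array weights and ran from -0.36 to 0.16 as each array was left out, that of Defa3 turned from -0.01 to 0.25 after the second quantile normalization and ran from -0.24 to 0.18, and that of Defa31 ran from -1.90 to 0.24, above 0 without CCK-EGFP replicate 1. With 3 arrays per group, the 95% intervals of Mmp7 and Ang4 are the widest among the 10 genes. For values near the background level, among them Reg2, signal over background limits what can be read.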
